A study of Mus musculus with 2 samples.

Results

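The genes described here are 8 myosin light chains and 2 myosin light chain kinases: Myl1, Myl2, Myl3, Myl4, Myl6, Myl7, Myl9, Myl12a, Mylk3 and Mylk. They were chosen by gene symbol, and all 10 were found among the 55536 annotated genes of the gene tables. The RNA came from hearts of female B6CASTF1/J mice at 4 days of age, the F1 of C57BL/6J and CAST/EiJ, and no treatment or engineered allele is named in the labels. There were 2 libraries in a single group, labelled biological replicates 2 and 1, made from 300 ng of total RNA each with ERCC spike-ins (synthetic RNAs added in known amounts). Since the labels give both libraries the same donor identifier, only the replicate numbers mark them as separate animals, and the spread between them may be technical. With no second group, the results are levels, shares and the difference between the 2 hearts, and no p-value was computed.

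Muscle contracts when myosin heads pull on actin. Each myosin heavy chain carries an essential and a regulatory light chain on its neck, and different tissues use different genes for both. In the mature heart Myl2 and Myl3 are the regulatory and essential chains of the ventricle, and Myl7 and Myl4 those of the atrium. Kinases phosphorylate the regulatory chain: Mylk3 is the cardiac kinase and Mylk that of smooth muscle and nonmuscle cells, where phosphorylation starts contraction. In the heart the modification tunes the force of contraction.

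The gene tables held 32509660 expected counts (estimated reads per gene) in replicate 2 and 36175363 in replicate 1. At this depth a 0 allowed up to 3 counts, or 0.0928 and 0.0834 CPM (counts scaled to a common library size) in replicates 2 and 1. All 7 cardiomyocyte markers reached a TPM (transcripts scaled to a common total, a level corrected for length) of 1, summing to 15582 TPM in replicate 2 and 15597 in replicate 1. The libraries stood apart in blood transcripts: 7 erythroid genes summed to 221 TPM in replicate 2 and 17279 in replicate 1. The part of that difference in the results below was not tested.

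All 10 genes reached a TPM of 1 in each heart. The 8 light chains together reached 14605 TPM in replicate 2 and 14188 in replicate 1, which was 0.683% and 0.681% of the counts on annotated genes. The kinases together reached 142 and 124 TPM in replicates 2 and 1. By mean TPM the order was Myl2, Myl3, Myl7, Myl9, Myl4, Myl12a, Myl6, Mylk3, Myl1 and Mylk. Each gene's pair of values lay clear of the next gene's, except for Myl1 and Mylk, whose ranges overlapped. In the second quantification, a separate transcript table of the same libraries, the order from the fourth place was Myl12a, Myl9, Myl4 and Myl6, and these neighbours overlapped.

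**Figure D1:**
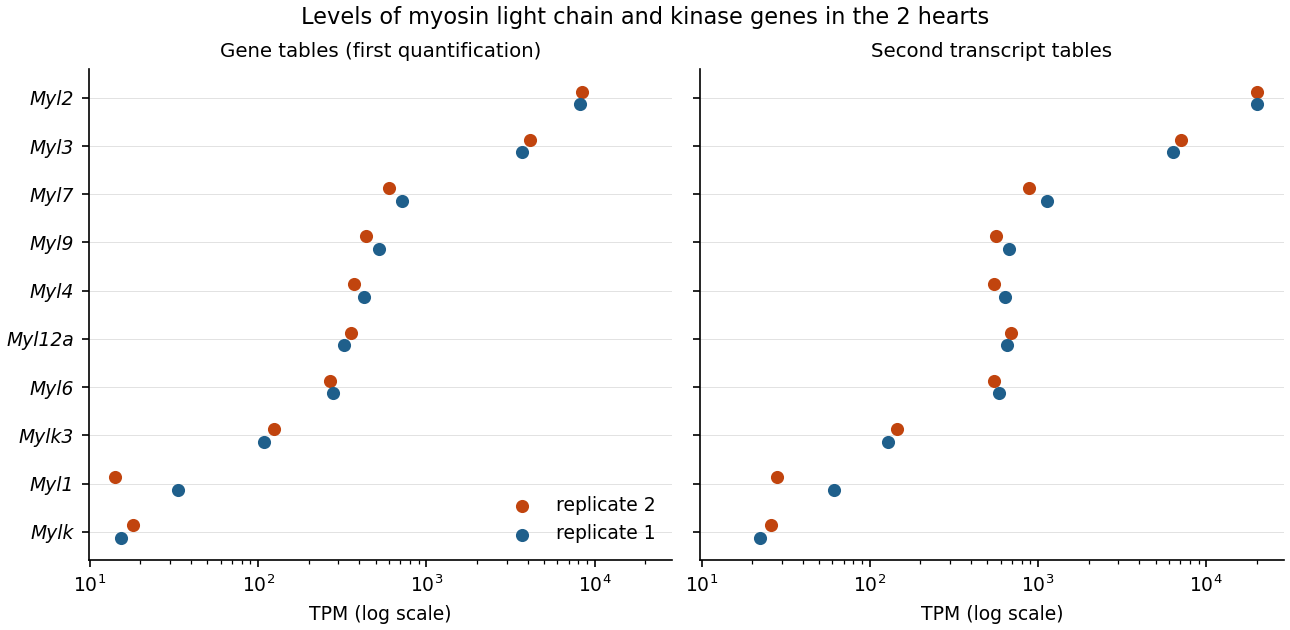
TPM (log scale) of the 10 genes in replicate 2 (red, upper point) and replicate 1 (blue, lower point), from the gene tables at left and the second quantification at right; genes run down by mean TPM in the gene tables. Myl2 lies at 8449 and 8198 TPM in the gene tables, Mylk at 18.0 and 15.3, and the replicates of Myl1 are farthest apart.

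Myl2 (ENSMUSG00000013936.12, mm10 chr5:122100951-122113472, plus strand) was the highest nuclear protein-coding gene of both hearts by TPM, summed over its coding and noncoding transcripts. It stood at 8449 TPM in replicate 2 and 8198 in replicate 1 (8324 ± 178, SD, n = 2), from 99858 and 111421 expected counts. Myl3 (ENSMUSG00000059741.13, chr9:110741861-110769798, plus strand) had 4120 and 3692 TPM in replicates 2 and 1, from 84860 and 86932 counts. It ranked 4 in replicate 2 and 7 in replicate 1 among 22015 nuclear protein-coding genes. The Myl2 level was 2.13-fold above that of Myl3 in the gene tables and 3.00-fold in the second quantification.

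Much of the Myl2 level in the gene tables was placed on a transcript with no annotated coding sequence. Myl2-201, which carries the 498-base coding sequence, took 56.7% of the gene's TPM in replicate 2 and 58.0% in replicate 1. Myl2-210, a processed transcript of 467 bases, took 41.7% and 40.4%. It shares 417 of its bases with the 662-base Myl2-201. Its first exon, of 50 bases, is the part it does not share, and is shown for that reason (mm10 chr5:122103181-122103230, plus strand).
Myl2-210 first exon: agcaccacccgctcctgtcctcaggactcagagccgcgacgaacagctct

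The second quantification gave Myl2-201 41.7% in replicate 2 and 40.6% in replicate 1, and Myl2-210 12.1% and 15.6%. There Myl2-208, also a processed transcript, held 19.0% and 19.4%, against 0.278% and 0.267% in the first tables. Myl2-209, a protein-coding model annotated as incomplete, held 18.2% and 18.3% there, against 0.0896% and 0.109% in the first tables. So Myl2-201 led in every table, while the remainder went to different short transcripts. Myl3 had 99.3% of its TPM on Myl3-201 in replicate 2 and 99.2% in replicate 1. In the second quantification Myl3-201 had 64.3% and 66.9%, and Myl3-205, a protein-coding model annotated as incomplete, had 32.0% and 31.5%.

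Myl7 (ENSMUSG00000020469.8, chr11:5896637-5898782, minus strand), the atrial regulatory chain, had 596 TPM in replicate 2 and 716 in replicate 1, from 7185 and 9873 counts. Myl4 (ENSMUSG00000061086.12, chr11:104550663-104595753, plus strand), the atrial essential chain, which is also made in embryonic muscle, had 369 and 423 TPM in replicates 2 and 1, from 6534 and 8660 counts. Both genes were lower in replicate 2. Myl7 made up 6.59% of the Myl2 and Myl7 sum in replicate 2 and 8.03% in replicate 1 (7.31% ± 1.02, n = 2). In the second quantification these shares were 4.25% and 5.31%. Myl4 made up 8.23% and 10.3% of the Myl3 and Myl4 sum (9.26% ± 1.45). In these bulk samples, fewer cells of a type and less RNA per cell cannot be told apart.

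The atrial shares moved with the transcripts counted. Over protein-coding transcripts alone the regulatory share was 11.9% ± 1.42 and the essential share 5.48% ± 1.18 (n = 2). Myl7 has a single annotated transcript. Myl4, by contrast, had 45.1% of its TPM in replicate 2 and 40.6% in replicate 1 on Myl4-204, a retained-intron transcript that shares 600 of its 677 bases with Myl4-202. The second quantification gave Myl4-204 32.8% and 30.1%. Its leading coding transcript was Myl4-203 (65.9% and 68.3%), where the first tables had Myl4-202 (50.1% and 55.0%), and these have the same coding sequence.

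Myl1 (ENSMUSG00000061816.15, chr1:66924295-66945404, minus strand) encodes the essential chains of fast skeletal muscle. Its level was 14.1 TPM in replicate 2 and 33.3 in replicate 1, from 240 and 655 counts, and Myl3 was 292-fold above it in replicate 2 and 111-fold in replicate 1. The gene makes a long and a short protein from separate first exons. Myl1-202, the short form of 150 codons, held 90.7% of TPM in replicate 2 and 80.8% in replicate 1. In the second tables it held 38.2% and 19.9%, and Myl1-207 held 25.5% and 41.9%. Transcripts with the long form's first exon were Myl1-201, of 188 codons, and Myl1-206, a protein-coding model annotated as incomplete. Together they made up 0.988% and 11.2% of the long and short forms in the first tables, but 47.3% and 65.7% in the second. Myl1-207 was counted in neither form. The second share rested mostly on Myl1-206, with 35.2% of the gene's TPM in replicate 2 and 32.4% in replicate 1. The complete Myl1-201 had 0% and 5.73% there. The long share was lower in replicate 2 in both tables, and its size depended on the quantification.

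The sarcomeric chains (Myl1, Myl2, Myl3, Myl4 and Myl7) held 92.8% of light chain TPM in replicate 2 and 92.1% in replicate 1. The rest came from Myl9, Myl12a and Myl6, which serve smooth muscle and nonmuscle myosins. Myl9 (ENSMUSG00000067818.6, chr2:156775420-156781658, plus strand), a regulatory chain abundant in smooth muscle, had 435 TPM in replicate 2 and 522 in replicate 1. Myl12a (ENSMUSG00000024048.15, chr17:70993656-71002878, minus strand), a nonmuscle regulatory chain, had 355 and 325 TPM. Myl6 (ENSMUSG00000090841.2, chr10:128490860-128494145, minus strand), their essential partner, had 267 and 278 TPM. Thus Myl9 was lower in replicate 2 by TPM, Myl12a higher, and the Myl6 values were the closest of the 3.

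Myl6 has alternative coding ends. Myl6-206 includes a 45-base exon and its coding sequence ends within it, and Myl6-201 skips it and has another end. Neither end was assigned to a tissue here. The last coding bases, with the stop codon, are shown because they set these proteins apart, with the 14 differing bases of 29 in capitals (mm10 chr10:128491736-128491764 for Myl6-206 and chr10:128491005-128491033 for Myl6-201, minus strand).
Myl6-206 end: CATttgtGAggCATAtCctgTCGggGtga
Myl6-201 end: AGCttgtCCggATGGtGctgAATggCtga

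Among Myl6-201, Myl6-205 and Myl6-206, the Myl6-206 end had 18.6% of TPM in replicate 2 and 17.7% in replicate 1 (18.1% ± 0.599, n = 2). The second quantification gave 12.8% and 11.8%. In both, the end without the 45-base exon led. The quantifications disagreed on the transcript that carries it. The first gave Myl6-201 66.6% of the gene's TPM in replicate 2 and 66.9% in replicate 1, and Myl6-205 0% and 1.51%. The second gave Myl6-205 51.6% and 53.5%, and Myl6-201 0.267% and 0.242%. Myl6-205 lacks the first 36 bases of the third exon (mm10 chr10:128492710-128492745, minus strand), shown because the 2 models differ in them. The models also differ elsewhere, since Myl6-201 has 665 bases and Myl6-205 has 608.
Left out of Myl6-205: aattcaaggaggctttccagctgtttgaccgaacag

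Myl9-201 held 95.8% of Myl9 TPM in replicate 2 and 95.6% in replicate 1, and nearly all of it in the second quantification. Myl12a transcripts with the principal coding sequence held 98.8% and 99.1% in the first tables, led by Myl12a-210 (92.6% and 91.8%). In the second they held 68.9% and 66.5%, led by Myl12a-201 (49.6% and 52.9%).

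**Figure D2:**
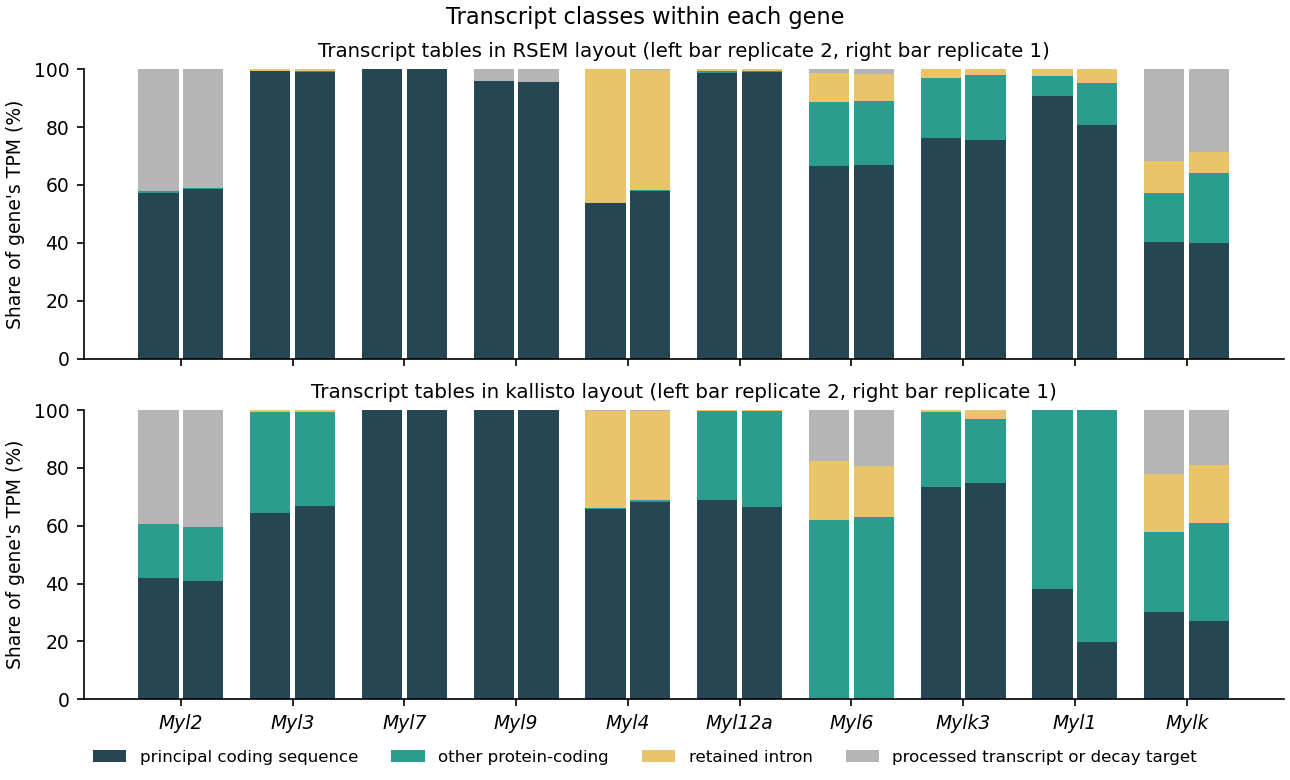
Share of each gene's TPM (percent, from 0 to 100) by transcript class, with replicate 2 as the left and replicate 1 as the right bar of each pair; the upper panel is the first transcript tables and the lower panel the second. Dark bars are transcripts with the principal coding sequence; they hold 57.2% and 58.5% of Myl2 in the first tables, and 0.267% and 0.242% of Myl6 in the second, where Myl6-205 leads.

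Mylk3 (ENSMUSG00000031698.14, chr8:85324303-85386345, minus strand), the cardiac kinase, had 124 TPM in replicate 2 and 109 in replicate 1, from 9417 and 9421 counts. Mylk (ENSMUSG00000022836.11, chr16:34745210-35002420, plus strand) had 18.0 and 15.3 TPM, from 1758 and 1669 counts. The Mylk3 level exceeded that of Mylk by 2.81 ± 0.03 on the log2 scale (SD, n = 2), or 7.0-fold, and by 5.68-fold in the second quantification. Mylk3-201, with a 2385-base coding sequence, led with 76.1% of TPM in replicate 2 and 75.4% in replicate 1, and with 73.5% and 74.8% in the second tables.

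Much of the Mylk TPM was assigned to transcripts other than that of the full kinase. Mylk-201, with a 5850-base coding sequence, had 40.1% of TPM in replicate 2 and 40.0% in replicate 1. The processed transcript Mylk-204 had 31.9% and 23.4%. In the second tables Mylk-201 had 30.0% and 27.0%, and Mylk-204 14.8% and 19.1%. Mylk-203 spans the last 3 coding exons, the part of the gene known to encode telokin, a smooth muscle protein without kinase activity. It had 17.2% and 24.1% in the first tables and 27.6% and 34.1% in the second, lower in replicate 2 in both. It was the leading transcript of replicate 1 in the second tables. By protein-coding transcripts alone the log2 ratio of Mylk3 to Mylk was 3.49 ± 0.07.

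The summed TPM of the sarcomeric regulatory chains (Myl2 and Myl7) exceeded that of the sarcomeric essential chains (Myl1, Myl3 and Myl4) by 1.05 ± 0.07 on the log2 scale, 2.08-fold. In assembled myosin the chains occur in equal number. The log2 ratio was 0.28 ± 0.08 by counts without length correction, 0.42 ± 0.10 over protein-coding transcripts and 1.52 ± 0.10 in the second quantification. Against the cardiac heavy chains Myh6 and Myh7 (7626 TPM in replicate 2 and 7821 in replicate 1), the cardiac regulatory chains stood at 1.19-fold and 1.14-fold. The cardiac essential chains (Myl3 and Myl4) stood at 0.589-fold and 0.526-fold. In the second quantification these were 2.48 and 2.44 for regulatory chains, and 0.902 and 0.797 for essential chains.

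The light chain transcripts are short, and the 2 quantifications treat short transcripts differently. In the first tables, the effective length used to compute TPM was 99 bases below the transcript length. In the second it was about 341 bases below in replicate 2 and 344 in replicate 1 for long transcripts. For Myl2 the second TPM was 2.37 times the first in replicate 2 and 2.45 times in replicate 1, while the counts were 1.04 and 1.03 times the first. The effective length of Myl2 in the first tables was 2.13 and 2.20 times that in the second. For Mylk3, whose transcripts are longer, the TPM ratio was 1.16 and 1.19, below the median of all tested genes (1.29 and 1.31). Myl7 differed in counts too: the second tables gave it 5111 and 7244 counts, 0.711 and 0.734 times the gene tables.

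**Figure D3:**
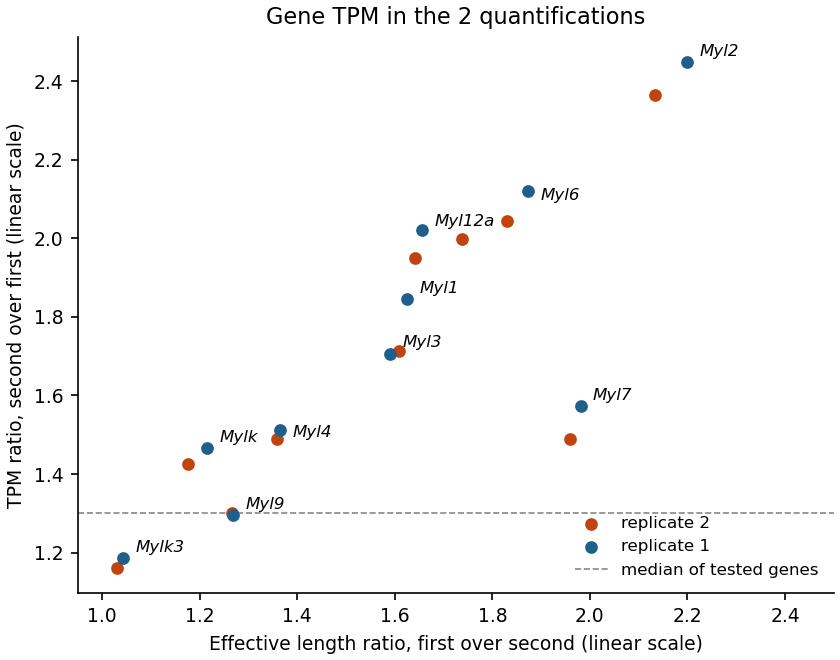
Ratio of gene TPM in the second quantification over the first (vertical) against the ratio of effective lengths, first over second (horizontal), both on linear scales, for the 10 genes in replicate 2 (red) and replicate 1 (blue); the dashed line is the mean of the libraries' medians over tested genes. Myl2 lies highest on both axes and Mylk3 lowest, and Myl7 lies below genes of like length ratio.

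Between the hearts, counts were scaled by TMM (a normalization on the bulk of genes). Genes with a mean TPM of 1 or more and 20 or more summed counts were tested. A call needed a 2-fold or larger ratio whose exact 95% Clopper-Pearson interval left out equality. Of 13598 tested genes 117 were called, or 0.860%. Of these 44, 0.324% of tested genes, were higher in replicate 2, and 73, 0.537%, were lower. Of the 10 genes here 1 was called, Myl1, which was lower. The second quantification called the same member and 148 of 14442 genes (1.02%), 60 of them higher (0.415%) and 88 lower (0.609%). These intervals cover counting error only: 23.7% of all tested genes had one that left it out, and so did 9 of the 10.

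Myl1 had 240 counts in replicate 2 and 655 in replicate 1, a log2 ratio of -1.34 (interval -1.56 to -1.12), so that the replicate 2 level was 0.396 times that of replicate 1. The second quantification gave -1.31. The skeletal muscle list moved with it: 14 markers summed to 7.34 TPM in replicate 2 and 47.3 in replicate 1. Of the 14, 4 reached a TPM of 1 in each heart, and none was at 0 in both. Those 4 had log2 ratios of -3.78 (Mylpf), -2.76 (Myh8), -2.51 (Tnnt3) and -1.73 (Tnni2), and all were called. A further 2 called markers, Tnnc2 and Atp2a1, passed the mean TPM minimum through replicate 1, where they were high, and had 0.07 and 0.30 TPM in replicate 2. Mylpf, the fast skeletal regulatory chain, had 12 counts in replicate 2 and 185 in replicate 1. The neonatal skeletal heavy chain Myh8 had 178 and 1301. The part of skeletal muscle RNA in the Myl1 difference was not tested.

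The atrial chains were lower in replicate 2. Myl7 had a log2 ratio of -0.35 (interval -0.39 to -0.31) and Myl4 of -0.30 (-0.34 to -0.25). The 5th and 95th percentiles over tested genes were -0.30 and 0.31, so Myl7 lay outside them and Myl4 just inside. The 11 atrial markers, which hold neither gene, summed to 1262 TPM in replicate 2 and 1447 in replicate 1. All 11 had a TPM of at least 1, and none was called. With TMM in the gene tables all 11 ratios were below 0, with a median of -0.17. In the second quantification 10 were below 0, and with spike-in scaling 6 were, the others (Dkk3, Kcnj3, Kcnj5, Nr2f1 and Nr2f2) standing at 0.03 to 0.12. With TMM the natriuretic peptide Nppa, the largest part of both atrial sums at 718 and 866 TPM, stood at -0.35. The growth factor Bmp10 stood at -0.75 and the gap junction gene Gja5 at -0.50. The 8 ventricular markers summed to 1690 and 1669 TPM, with a median log2 ratio of 0.02. The part of atrial tissue in the Myl7 and Myl4 differences was not tested.

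Myl9, at a log2 ratio of -0.35 (interval -0.38 to -0.31), was as far from equality as Myl7. The 11 smooth muscle and pericyte markers, none of them at 0, summed to 815 TPM in replicate 2 and 869 in replicate 1. Smooth muscle actin Acta2, the largest part of both sums at 465 and 551 TPM, stood at -0.34. Calponin Cnn1 stood at -0.52, while 8 of the 10 tested were above 0, including the smooth muscle heavy chain Myh11 at 0.52. Mylk, at 0.18 (0.09 to 0.28), was higher in replicate 2. The smooth muscle list thus had members on either side of equality, as Myl9 and Mylk did, and its part in these differences was not tested.

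The other members lay closer to equality. Myl6 stood at -0.17, Myl3 at 0.07, Mylk3 at 0.11 and Myl12a at 0.03, the last with an interval (-0.01 to 0.08) that included equality. Myl2 stood at -0.05 with TMM and at 0.08 with spike-in scaling, which shifted the median of tested genes by 0.13. The median over the 10 genes was -0.11, beside -0.003 over all tested genes.

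**Figure D4:**
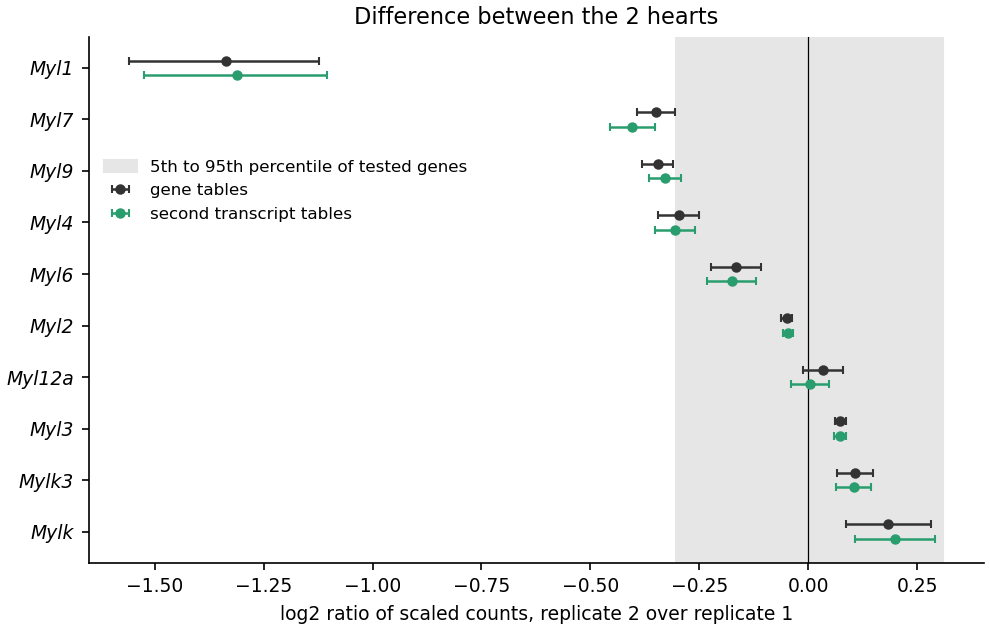
Log2 ratio of scaled counts, replicate 2 over replicate 1, for the 10 genes in the gene tables (black) and the second quantification (green); bars are exact 95% intervals of counting error and the grey band runs from the 5th to the 95th percentile of tested genes (-0.30 to 0.31). Myl1 lies far left at -1.34, Myl7 and Myl9 lie just left of the band in the gene tables, and all 10 genes have the same direction in both quantifications.

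**Figure D5:**
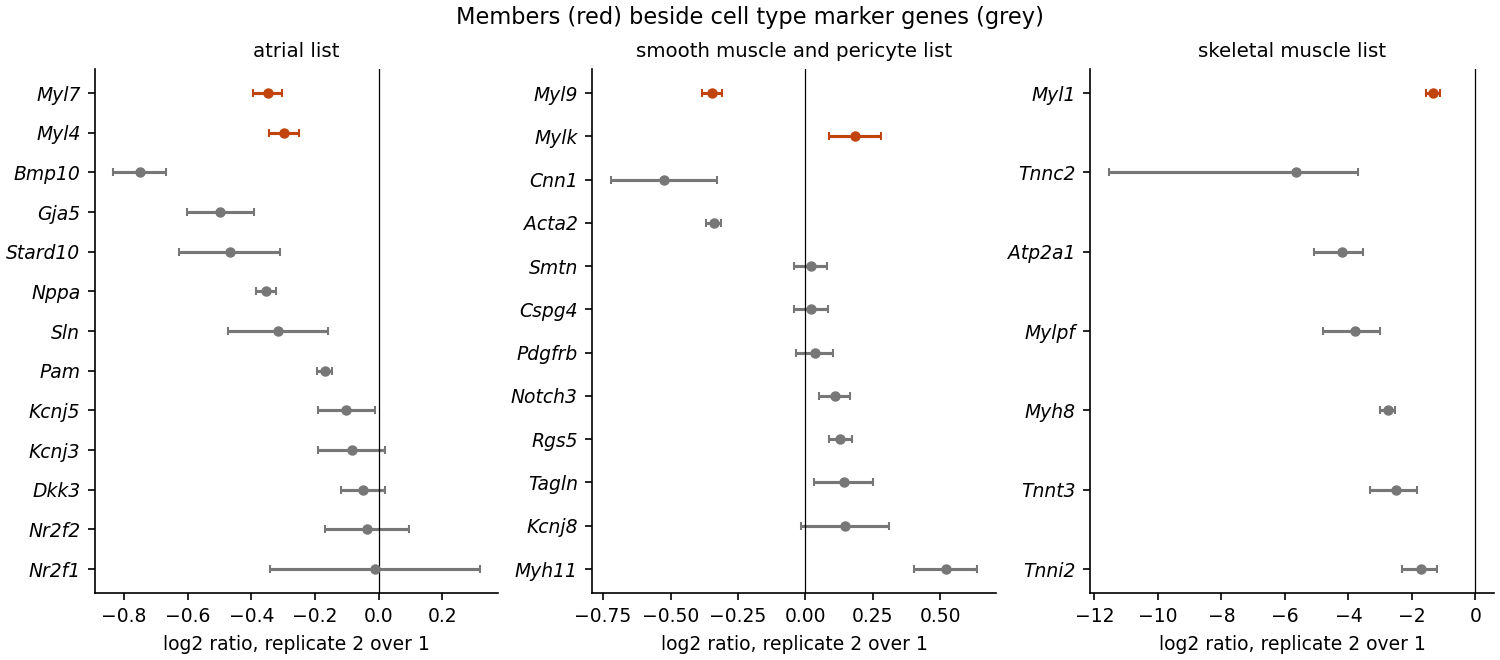
Log2 ratios, replicate 2 over replicate 1, of 5 of the genes (red) above the tested markers of the atrial, smooth muscle and pericyte, and skeletal muscle lists (grey), with exact 95% intervals of counting error; the horizontal scales differ. With TMM all 11 atrial markers lie left of 0, as Myl7 and Myl4 do, though some intervals include it, smooth muscle markers lie on both sides, and the skeletal muscle markers lie left of Myl1. Of these, Tnnc2 and Atp2a1 passed the TPM minimum through replicate 1 alone; with spike-in scaling 5 of the 11 atrial markers lie right of 0.

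Promoters were read for the genes above from RefSeq (GRCm38.p6), as the 250 bases before each annotated start, and all 10 had a window, 13 in all. The CArG box, bound by serum response factor in muscle genes, was searched on both strands. It was present in 1 window each of Myl7, Myl9, Myl3 and Myl6, 4 of 13 windows, and in 482 of all 32851 RefSeq windows of the same length (1.47%). The MEF2 site was in none of the 13 and in 2.92% of all windows. These counts include the Myl2 windows, which lie far from its GENCODE starts, so the start of Myl2-201 was not searched. The Myl1 window is nearest the start of Myl1-201. In the first tables that transcript held 0% of Myl1 TPM in replicate 2 and 7.80% in replicate 1. The windows of Myl4, Myl9 and Myl12a are also nearest the starts of minor transcripts, Myl4-201, Myl9-203 and Myl12a-206. In the first tables these held 3.39%, 3.72% and 2.19% of their gene's TPM in replicate 2, and 3.03%, 4.11% and 2.21% in replicate 1. The Myl6 window with the box is the one nearest the start of Myl6-213, a processed transcript at 0.66 and 0 TPM in replicates 2 and 1, and the window at the Myl6-201 start had none. Between the hearts Myl7 and Myl9 stood at -0.35 and Myl3 at 0.07. The windows of Myl7, Myl9 and Myl3 are shown with the CArG box in capitals, 61, 161 and 85 bases before the start of Myl7 (chr11:5898783-5899032, minus strand), Myl9 (chr2:156775214-156775463, plus strand) and Myl3 (chr9:110763428-110763677, plus strand).
Myl7: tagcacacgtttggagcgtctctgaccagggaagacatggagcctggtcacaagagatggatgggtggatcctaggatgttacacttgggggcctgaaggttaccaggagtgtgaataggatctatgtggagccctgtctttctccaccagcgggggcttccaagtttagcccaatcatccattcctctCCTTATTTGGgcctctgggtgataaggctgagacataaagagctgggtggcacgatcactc
Myl9: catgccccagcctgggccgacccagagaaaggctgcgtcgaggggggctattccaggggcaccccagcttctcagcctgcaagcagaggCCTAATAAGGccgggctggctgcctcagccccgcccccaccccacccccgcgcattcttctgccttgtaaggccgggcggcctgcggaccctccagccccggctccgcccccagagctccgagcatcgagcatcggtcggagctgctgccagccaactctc
Myl3: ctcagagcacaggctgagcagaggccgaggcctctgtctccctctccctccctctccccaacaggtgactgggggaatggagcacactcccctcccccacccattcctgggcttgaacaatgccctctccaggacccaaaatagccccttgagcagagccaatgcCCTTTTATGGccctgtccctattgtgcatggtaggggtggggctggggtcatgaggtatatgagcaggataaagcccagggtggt

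A match describes these letters and shows no binding. The RefSeq starts of Myl2 lay 7762 and 8227 bases from the nearest GENCODE start, so its windows were not set beside the transcripts measured here.

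Other genes of the pathway were read from 6 lists. Of the 4 further light chain symbols, matching 5 genes, 4 genes had a TPM of at least 1 and Mylpf alone was called. Myl12b, a neighbour of Myl12a on chromosome 17 and a close relative, stood at 87.9 TPM in replicate 2 and 90.6 in replicate 1. Myl6b had 1.48 and 1.65 TPM, and Myl10 had 2 and 0 counts. Of 10 further kinases that can phosphorylate light chains, 9 had a TPM of at least 1 and none was called. In the gene tables Cdc42bpb stood at 48.3 TPM in replicate 2 and 51.3 in replicate 1. Mylk4 stood at 29.1 and 26.5 TPM, above Mylk, while the skeletal kinase Mylk2 had 2 and 14 counts.

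Light chain phosphatase, which removes the phosphate, had 7 of 8 genes at a TPM of at least 1 and none called. Its catalytic subunit Ppp1cb stood at 213 TPM in replicate 2 and 210 in replicate 1. Of the targeting subunits, Ppp1r12a had 77.8 and 76.7 TPM and Ppp1r12b 55.5 and 52.4. Of the inhibitors, Ppp1r14c had 132 and 119 TPM and Ppp1r14b 105 and 108, and Ppp1r14d was at 0 in both. The calmodulin genes, whose protein activates Mylk with calcium, all passed that level and summed to 448 TPM in replicate 2 and 431 in replicate 1. All 7 heavy chains listed passed it too, and none was called. The nonmuscle chains Myh9 and Myh10 had 101 and 74.8 TPM in replicate 2, and 101 and 74.9 in replicate 1. Mylip, a ubiquitin ligase named for its binding to regulatory light chain, had 2.57 and 2.33 TPM.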

How the data were processed

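Per the file headers and accompanying notes, values are on mm10 with annotation M21, with program and version not given in the sources used here. Per library, the authors deposited gene tables of expected (estimated) counts and TPM, a matching transcript table with percent of each gene's TPM, and a second transcript table of estimated counts and TPM, in the column layout of kallisto. Posterior standard deviations, deposited as a signal that is never negative, were at most 0.507% of the count for the 10 genes. The tables also hold 26345 other rows (numbered features, 96 spike-ins and phiX) with 0.547% and 0.582% of counts in replicates 2 and 1, left out of library sizes.

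From these, second-quantification values were summed per gene. Expected counts were rounded, scaled by TMM (edgeR 4.0.16, R 4.3.3), given a prior count of 0.5 and compared as log2 ratios. The rule was run on simulated counts that held counting error only. That run had no TMM scaling and no variation between hearts, so it does not show how the rule handles them. Levels are mean ± SD of the 2 libraries. Python 3.11.15, numpy 2.4.6, pandas 2.3.3 and scipy 1.17.1 were used. Alternatives were the second quantification, DESeq2 1.42.0 size factors, spike-in scaling, no minimum TPM, a fold of 1.5, posterior means, CPM, protein-coding transcripts, rescaled TPM, a TPM of at least 5 and each library alone.

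The members and lists were chosen with earlier results of these data known. Named were the 10 members, up to 6 genes per related list by mean TPM with any called, and up to 3 transcripts per member by mean share. Others in lists at low levels (Myl10, Mylk2, Ppp1r14d) and the marker genes named were chosen after their values were seen. Genes of similar pattern were not named, since 2 libraries give each gene a single ratio. Per the labels the libraries were stranded. Sequences were read from RefSeq (GRCm38.p6) and GENCODE M21. Alleles of the parental strains were not analysed here.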

Additional observations from a re-analysis of the deposited data

How the results depend on the processing

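None of the alternatives reversed a ratio of families or a call, and a share in percent has no sign to reverse. Myl1 was the single member called under the main rule and all 6 alternatives to it. Dropping the minimum TPM and a fold of 1.5 only loosened the rule, so they could not lose that call. The atrial regulatory share was 4.78% in the second quantification and 11.9% over protein-coding transcripts, and the atrial essential share was 5.48% over the latter transcripts. There the regulatory share was above the essential share, while in the main setting it was below it (7.31% and 9.26%). The sarcomeric share was 93.8% in the second quantification, 90.3% over protein-coding transcripts and 89.3% by CPM. The log2 ratio of regulatory to essential chains was 1.52, 0.42 and 0.28 under those 3 settings, and that of Mylk3 to Mylk was 2.51, 3.49 and 2.46, and 2.76 from posterior mean TPM. With each library alone these results ran over 6.59% to 8.03%, 8.23% to 10.3%, 92.1% to 92.8%, 1.01 to 1.10 and 2.78 to 2.83. All genes called between the hearts numbered 117, and 357 with no minimum TPM and 311 at a fold of 1.5. Spike-in scaling turned the share of calls lower in replicate 2 to 46.9%, against 62.4%, and posterior means moved it to 71.4%. With spike-in scaling Myl2 stood at 0.08, with TMM at -0.05. The cause was not tested. No paired analysis was possible because there is 1 group. Because reads carry no molecular identifiers, intervals and limits cover counting error only.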

Other observations

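Myl12a and Myl12b lie side by side on mm10 chromosome 17, and the annotation holds a further gene of symbol Myl12b (70974119 to 71002208) that starts within Myl12b and ends within Myl12a. The gene tables gave this overlapping gene 39.6 TPM in replicate 2 and 36.4 in replicate 1, from 562 and 548 expected counts. In the second quantification its value was 0 in both libraries. Genes missing from that quantification were also set to 0, so it may have been absent there. The second quantification gave Myl12b 53.4 TPM in replicate 2 and 48.9 in replicate 1. Myl12a exceeded Myl12b by 3.80-fold in the gene tables and by 13.2-fold in the second quantification, so the level of Myl12b relative to its neighbour is uncertain. In the library where it was larger, the posterior SD of the Myl12b count was 4.29% of that count. By the same measure it was 10.7% for the overlapping gene and 0.507% for Myl12a. How reads were split among these 3 genes was not tested.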
